A study of Mus musculus with 7 samples.

Results

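The genes described here are 35 genes of the unfolded protein response and the amino acid stress response, of the 23361 genes in the deposited values. They were taken by name from a fixed list of stress sensors and transcription factors, their target genes, amino acid and one-carbon enzymes, chaperones of the endoplasmic reticulum (ER), protein disulfide isomerases and genes of ER-associated degradation. All 35 had a listed value in all 7 libraries, which for Derl3 was as low as 0 fragments. Expression was measured by RNASeq in macrophages sorted as Lin-F4/80+CD14+CD11b+CD16/32+ cells from the regenerative bridge that formed inside inert conduits after transection and repair of the left sciatic nerve of BALB/cJ mice. The time after repair was 5 days for 3 libraries, 14 days for 2 and 28 days for 2. All mice had been operated, so each time point was compared with another time point and not with uninjured nerve. The design text calls the libraries independent biological replicates, and whether a library holds cells of 1 mouse or of several is not given in the sources used here.

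Proteins that enter the ER are folded there by chaperones, and when misfolded protein accumulates the sensors IRE1α (Ern1), PERK (Eif2ak3) and ATF6 (Atf6) start the unfolded protein response. IRE1α splices the mRNA of Xbp1, ATF6 is cleaved to a transcription factor, and both routes raise chaperone and degradation genes. PERK shares with the sensor of amino acid shortage the step of phosphorylating eIF2α, which favours translation of ATF4 (Atf4), and ATF4 in turn raises CHOP (Ddit3) and genes of amino acid synthesis and transfer RNA charging. Macrophages secrete much protein and clear debris, and both branches are known in them. Much of the control of these sensors is by phosphorylation, cleavage, splicing and translation, and the gene-level values described here hold none of these.

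The short sequences to which these factors are known to bind were looked for in the RefSeq promoter windows of GRCm38.p6, which run from 250 bases before to 50 bases after a start site. Such a window was at hand for 31 of the 35 genes, and not for Atf6, Hyou1, Manf and Derl1. The ER stress element (ERSE, CCAAT and CCACG with 9 bases between them, searched on both strands) was found in the windows of 9 genes, which were Hspa5, Hsp90b1, Calr, Canx, Dnajc3, Creld2, Pdia6, Syvn1 and Derl3. It was found in 0.119% of the 32851 windows of all genes. ERSE-II (ATTGG and CCACG with 1 base between them) was found in Dnajb11 and Herpud1 and in 0.0365% of all windows. The C/EBP-ATF composite element bound by ATF4 (CARE, searched as TGATGNAAT and TGATGNAAC) was found in Asns, Chac1 and Herpud1 and in 1.77% of all windows. The XBP1 core TGACGTGG was in none of the windows of the 35 genes and in 0.676% of all windows. A match of letters is a description and not a measured binding site.

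The following stretches show how the elements lie in 5 of the genes that hold one. They run 5′ to 3′ on the strand of the gene, with the element in capitals. Creld2, a chaperone with an ERSE on the opposite strand, is shown with the bases before its start (chr15:88819396-88819645, plus strand). Herpud1, a degradation gene, carries a CARE on the opposite strand first and an ERSE-II after it (chr8:94386179-94386428, plus strand). Chac1, an ATF4 target, carries a CARE on the opposite strand (chr2:119350992-119351228, plus strand). Of Hspa5 and Asns only 30 bases around the element are shown, because GENCODE places the start of these genes upstream of it. They are chr2:34772020-34772049 on the plus strand and chr6:7693213-7693242 on the minus strand.
Creld2: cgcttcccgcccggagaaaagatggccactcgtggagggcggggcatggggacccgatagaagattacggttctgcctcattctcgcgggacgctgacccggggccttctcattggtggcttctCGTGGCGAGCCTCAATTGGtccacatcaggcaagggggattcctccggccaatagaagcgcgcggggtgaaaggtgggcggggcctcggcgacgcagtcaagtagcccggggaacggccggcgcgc
Herpud1: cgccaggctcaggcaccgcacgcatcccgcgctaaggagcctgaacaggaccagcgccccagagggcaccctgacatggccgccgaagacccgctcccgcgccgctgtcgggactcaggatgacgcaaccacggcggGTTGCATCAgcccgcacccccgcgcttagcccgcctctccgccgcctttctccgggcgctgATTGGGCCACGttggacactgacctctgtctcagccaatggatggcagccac
Chac1: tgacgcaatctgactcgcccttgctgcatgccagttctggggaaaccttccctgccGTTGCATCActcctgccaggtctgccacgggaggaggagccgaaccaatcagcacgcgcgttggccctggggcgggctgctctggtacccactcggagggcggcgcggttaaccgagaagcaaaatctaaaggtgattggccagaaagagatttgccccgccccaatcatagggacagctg
Hspa5: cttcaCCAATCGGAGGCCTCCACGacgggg
Asns: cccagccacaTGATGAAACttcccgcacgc

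The libraries held 18027190 to 35247116 fragments assigned to genes, and the 35 genes took 0.552% to 0.667% of them. All 9 macrophage markers were expressed in every library, with a summed level of 16100 to 22200 FPKM (fragments per kilobase of transcript, relative to library size), and 3 of them were called lower at day 28 than at day 5. The 7 fibroblast markers summed to 28.8 to 74.1 FPKM at day 5 and to 35.6 and 57.0 at day 28. At day 14 they summed to 223 and 81.2 FPKM, both above all day 5 and day 28 sums. The 5 T cell markers summed to at most 1.47 FPKM. Of the 8 markers of B cells and plasma cells, a cell type rich in ER chaperones, Mzb1 was at 0 in all libraries, Igj did not exceed 0.082 FPKM, Cd79b was at 4.38 to 10.3 FPKM in every library, and Sdc1, which macrophages also express, carried most of the sum. Sdc1 was called higher at day 28, from 46.7 ± 11.4 FPKM at day 5 to 112 ± 19.4 (log2 fold change 1.28, adjusted p = 0.00867 by edgeR). The 9 immediate early and heat shock genes, which sorting can induce, summed to 2280 to 2540 FPKM at day 5, to 3640 and 4370 at day 14 and to 2490 and 3360 at day 28. The part of these differences in the results below was not tested. In RNA from sorted populations, fewer cells that express a gene and less RNA of it per cell cannot be told apart.

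The levels of the 35 genes spanned a wide range. The mean over all 7 libraries was highest for Hspa5 (497 FPKM), Calr (442 FPKM), Hsp90b1 (225 FPKM), Pdia3 (201 FPKM) and Atf4 (192 FPKM). It was lowest for Trib3 (0.669 FPKM), Phgdh (0.563 FPKM), Chac1 (0.296 FPKM) and Derl3 (0.213 FPKM). Derl3 had 0 to 8 fragments per library, did not pass the filter on low counts and was not tested, which left 34 genes. From day 5 to day 28, 3 of the 34 genes rose and none fell at an adjusted p under 0.05 in the quasi-likelihood test of edgeR, adjusted by Benjamini-Hochberg over the 12858 genes tested. They were Mthfd2, Psat1 and Asns, all of them enzymes of amino acid or one-carbon metabolism. Of all genes tested, 15.2% were called in this comparison and 7.74% were called higher at day 28, against 8.82% of the 34 genes. From day 5 to day 14 none of the 34 genes was called (4.78% of all genes), with 4 at an unadjusted p under 0.05. DESeq2 called 1 of the 34, Herpud1, and 10.8% of all genes. From day 14 to day 28 none was called (0.0622% of all genes, 8 genes), with 1 at an unadjusted p under 0.05 and 0 called by DESeq2. The shares of all genes called by edgeR also stand beside the counts by role below. The 3 comparisons share libraries with each other and are not independent.

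**Figure D1:**
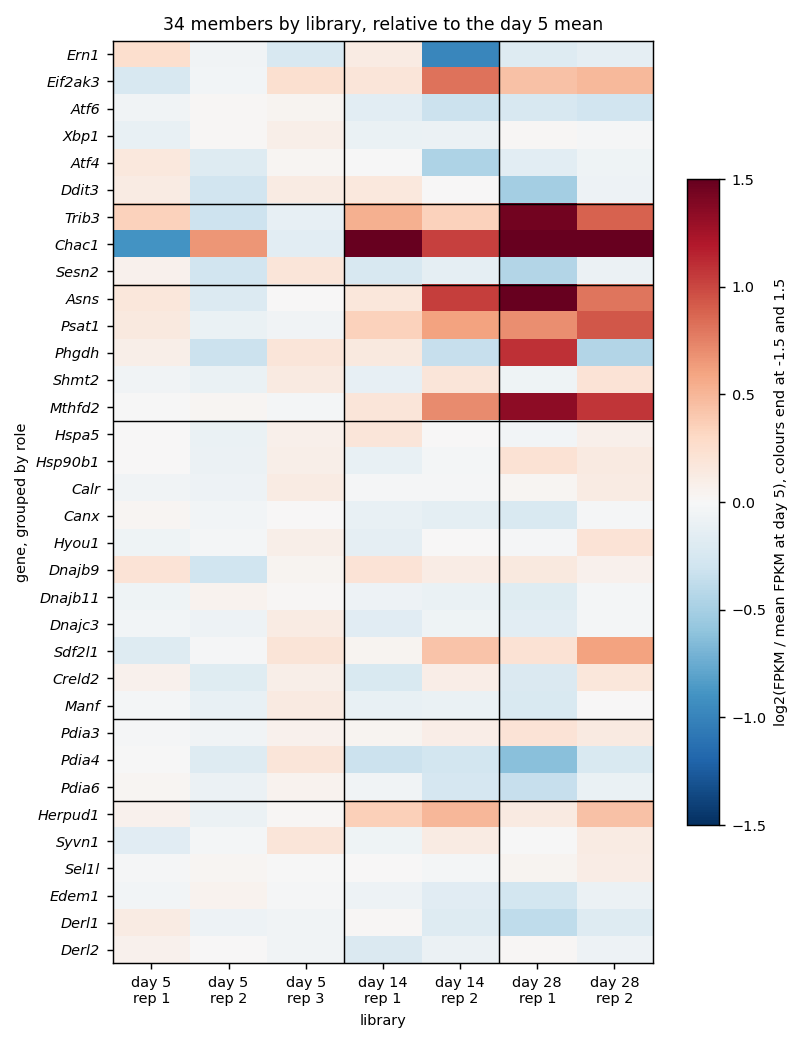
Level of each of the 34 tested genes (rows, grouped by role) in each of the 7 libraries (columns), as log2 of its FPKM over the mean FPKM at day 5; colours end at -1.5 and 1.5. The chaperone, disulfide isomerase and degradation rows stay pale, while Chac1, Trib3, Asns, Psat1 and Mthfd2 darken towards day 28 and Ern1 is low in the second day 14 library.

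The ratio of the highest to the lowest of the 7 FPKM values had a median of 1.32 over the 34 genes and of 1.68 over all genes tested, and it was under 1.5 for 21 of the 34 (61.8%) and for 35.2% of all genes. The median of the absolute log2 fold change from day 5 to day 28 was 0.18 over the 34 genes and 0.31 over all genes, and that of the signed change was 0.04 and 0.03. At day 14 against day 5 the absolute medians were 0.12 and 0.26. The 95% interval of the change from day 5 to day 28 lay within 1.5-fold in either direction for 22 of the 34 genes and for 34.4% of all genes. Low counts widen both measures. The libraries of days 5 and 28 did not overlap for 16 of the 34 genes, 11 higher and 5 lower at day 28, against 51.5% of all genes. Those of days 5 and 14 did not overlap for 11 genes, 5 higher and 6 lower, against 43.2% of all genes. As shares of the 34 genes these were 47.1% and 32.4%, and nothing is read from them about these genes.

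Among the enzymes, Mthfd2, the mitochondrial methylenetetrahydrofolate dehydrogenase of one-carbon metabolism, had the clearest change. It lies on chromosome 6 (83305691 to 83325908, minus strand, GENCODE annotation of GRCm38). Its level was 5.84, 5.98 and 5.74 FPKM in the day 5 libraries, 6.65 and 9.60 at day 14, and 14.8 and 12.3 at day 28. All day 14 libraries were above all day 5 libraries and below all day 28 libraries. The mean went from 5.85 ± 0.121 FPKM (SD, n = 3) to 8.13 ± 2.09 (n = 2) and 13.6 ± 1.79 (n = 2). The fitted log2 fold change from day 5 to day 28 was 1.23 (SE 0.18, 2.34-fold), with an adjusted p of 0.00353 by edgeR. The step from day 5 to day 14 was 0.49 (SE 0.18, adjusted p = 0.146) and that from day 14 to day 28 was 0.74 (SE 0.20, adjusted p = 0.178), and neither was called. Mthfd2 was called at day 28 against day 5 in 15 of 15 alternative fits.

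Psat1, phosphoserine aminotransferase, catalyses the middle step of serine synthesis and lies on chromosome 19 (15904678 to 15947337, minus strand). Its level was 5.78, 4.88 and 5.07 FPKM at day 5, 6.67 and 7.98 at day 14, and 8.49 and 10 at day 28. The 3 time points did not overlap, in the order of time. The log2 fold change from day 5 to day 28 was 0.83 (SE 0.16, 1.78-fold), with an adjusted p of 0.0109 by edgeR. With the replicate number as a block it was 0.80 with an adjusted p of 0.0666, and without the second day 28 library the call was also lost (adjusted p = 0.0633).

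Asns, asparagine synthetase, is a long-known ATF4 target and lies on chromosome 6 (7675169 to 7693254, minus strand). It had 1.38, 1.07 and 1.24 FPKM at day 5, 1.38 and 2.53 at day 14, and 3.55 and 2.14 at day 28. Both day 28 libraries were above the day 5 libraries, while the day 14 libraries lay on either side of the day 28 minimum. These values rest on 38 to 237 fragments per library. The log2 fold change from day 5 to day 28 was 1.23 (SE 0.35, 2.35-fold), with an adjusted p of 0.0464 by edgeR, close to the threshold. The call was lost with the replicate block (adjusted p = 0.152) and without any single day 5 or day 28 library, and it was made in 7 of 15 alternative fits, over which the adjusted p reached 0.320.

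The other enzymes were not called. Shmt2, the mitochondrial serine hydroxymethyltransferase that acts just before MTHFD2, had mean levels of 9.47 ± 0.841, 9.69 ± 1.43 and 9.97 ± 1.34 FPKM on days 5, 14 and 28. Its log2 fold change from day 5 to day 28 was 0.08, with a 95% interval from -0.27 to 0.43. Exons of Shmt2 overlap Ndufa4l2 on the opposite strand, so its value is uncertain as well. Phgdh, which opens serine synthesis, was low at 0.507 ± 0.0882 FPKM at day 5, and its day 28 libraries differed, with 1.08 in the first and 0.373 in the second. Its interval from day 5 to day 28 ran from -0.71 to 1.84, so a change of this size was not detectable at 12 to 70 fragments per library. The summed level of the 5 enzymes was 21.2 to 23.1 FPKM at day 5, 23.9 and 31.2 at day 14, and 37.0 and 35.7 at day 28. Dividing cells are known to use MTHFD2. Of 10 cell cycle genes, 8 had a higher fitted level at day 28 than at day 5, with a median log2 fold change of 0.53, 7 of 10 at an unadjusted p under 0.05 and 2 called. At day 14 against day 5, 6 of the 10 were called higher, with a median of 0.94. Their part in the change of Mthfd2 was not tested.

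**Figure D2:**
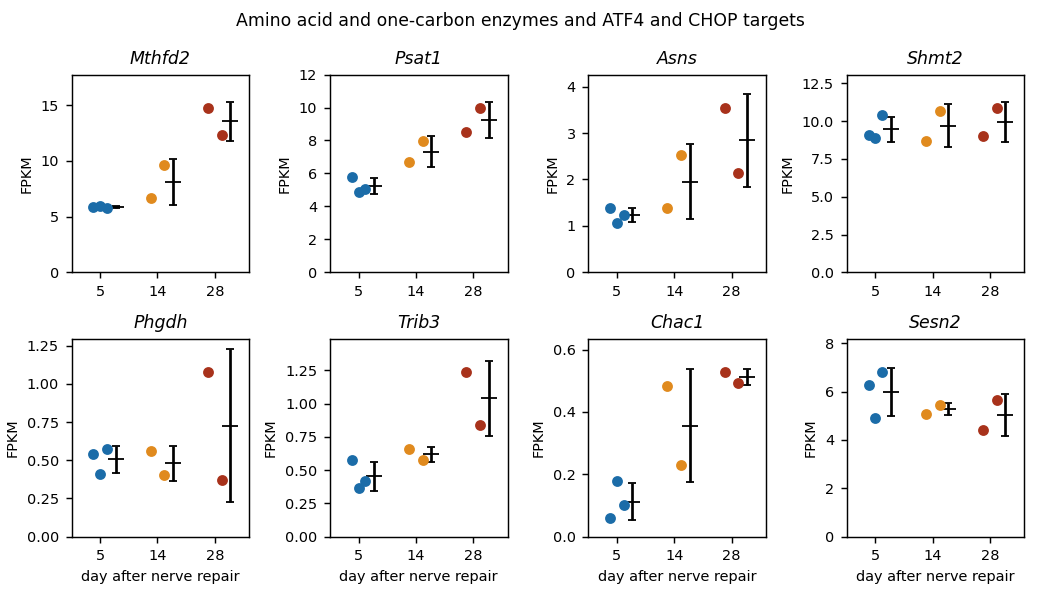
FPKM (vertical axes, from 0) of the 5 amino acid and one-carbon enzymes and of the ATF4 and CHOP targets Trib3, Chac1 and Sesn2 against day after nerve repair; each point is 1 library, and the bars give the mean ± SD of a time point (n = 3, 2 and 2). Mthfd2 and Psat1 rise without overlap from day 5 to day 28, Asns and Trib3 are highest in the first day 28 library, Shmt2 and Sesn2 overlap at all time points, and the day 28 libraries of Phgdh lie far apart.

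The targets of ATF4 and CHOP were Trib3, a pseudokinase induced by stress, Chac1, which degrades glutathione, and Sesn2, a leucine sensor that restrains mTORC1. None of the 3 was called in any comparison. Trib3 had 0.577, 0.368 and 0.419 FPKM at day 5, 0.657 and 0.578 at day 14, and 1.24 and 0.842 at day 28, from 14 to 89 fragments. Its day 28 libraries lay above all others, and the log2 fold change from day 5 was 1.21 (SE 0.44) with an adjusted p of 0.0924. Chac1 had 0.060, 0.177 and 0.10 FPKM at day 5, 0.484 and 0.228 at day 14, and 0.529 and 0.493 at day 28. Both later time points lay above day 5 without overlap, and the log2 fold change at day 28 was 2.19 (SE 0.74) with an adjusted p of 0.076. The day 5 libraries held 10 fragments of Chac1 in all and the day 28 libraries 41, a ratio of 5.35 after scaling with a 95% interval of 2.63 to 12.0 that covers counting error only. Sesn2 had 5.99 ± 0.996 FPKM at day 5 and 5.03 ± 0.881 at day 28, with overlapping libraries and a log2 fold change of -0.25 (95% interval -0.67 to 0.18). On log2(FPKM + 1) values tested with limma, Chac1 and Trib3 were called at day 28 against day 5 and Asns was not. On log2(FPKM + 0.1) values Chac1 was called, and Trib3 and Asns were not.

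The sensors and transcription factors were not called in any comparison, 0 of 6. Atf4 had 227, 179 and 208 FPKM at day 5, 203 and 148 at day 14, and 183 and 195 at day 28, which overlap. Its log2 fold change from day 5 to day 28 was -0.10 (95% interval -0.46 to 0.26). Ddit3 had 44.1, 33.4 and 44.1 FPKM at day 5, 45.3 and 40.8 at day 14, and 28.5 and 38.6 at day 28, also overlapping, with a log2 fold change of -0.27 (95% interval -0.66 to 0.13). Ddit3 shares exon sequence with Mars on the opposite strand, and the library kit is not stated to keep the strand, so its value is uncertain.

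Xbp1 was the most even of the 6, at 51.6, 56.6 and 59.4 FPKM at day 5, 52.1 and 52.4 at day 14, and 56.7 and 55.0 at day 28. Its log2 fold change from day 5 to day 28 was 0.01 (95% interval -0.23 to 0.25). Atf6 was 20.8, 21.8 and 22.2 FPKM at day 5, 19.3 and 17.3 at day 14, and 18.3 and 17.7 at day 28. All later libraries were below all day 5 libraries, and the log2 fold changes were -0.23 (adjusted p = 0.221 for day 14) and -0.25 (adjusted p = 0.143 for day 28). Eif2ak3 went the other way, with 4.19, 4.83 and 5.84 FPKM at day 5, 5.63 and 8.72 at day 14, and 6.69 and 6.95 at day 28. Its day 28 libraries were above the day 5 libraries, by 0.48 on the log2 scale (SE 0.20, adjusted p = 0.140), a change that was called in 2 of 15 alternative fits.

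Ern1 showed the widest spread of the 6 between libraries of 1 day. It had 31.9, 25.8 and 22.6 FPKM at day 5, 29.2 and 13.6 at day 14, and 23.5 and 24.5 at day 28. The second day 14 library was the lowest of all 7 and had 0.466 times the level of the first. The log2 fold change from day 5 to day 14 was -0.32 (SE 0.27, adjusted p = 0.511). It ran from -0.96 without the first day 14 library to 0.13 without the second, and in the former fit Ern1 was called lower.

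**Figure D3:**
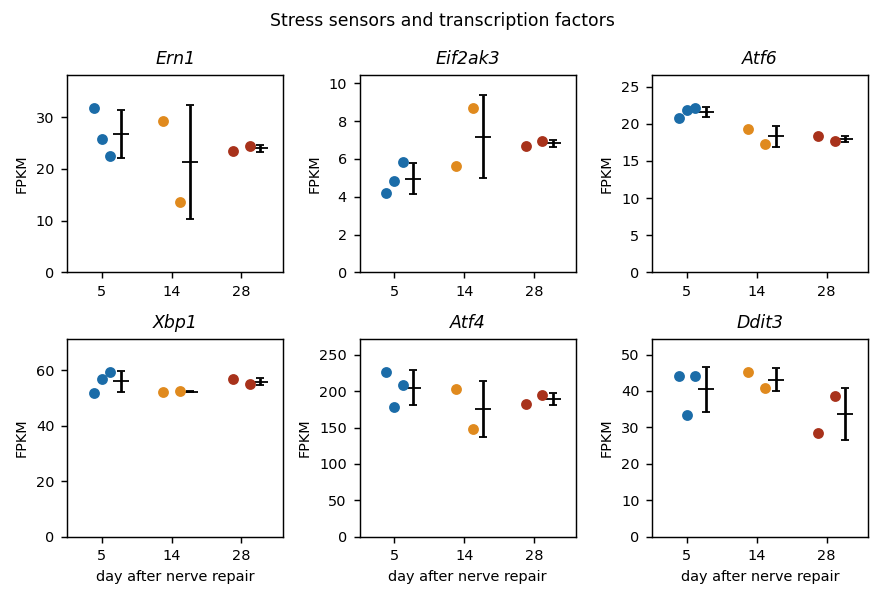
FPKM (vertical axes, from 0) of the stress sensors Ern1, Eif2ak3 and Atf6 and the transcription factors Xbp1, Atf4 and Ddit3 against day after nerve repair; each point is 1 library and the bars give the mean ± SD (n = 3, 2 and 2). Xbp1 lies between 51.6 and 59.4 FPKM in all libraries, Atf6 is lower in all later libraries, and the day 14 libraries of Ern1 lie at 29.2 and 13.6 FPKM.

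The 11 chaperones and co-chaperones of the ER were level, with 0 called in any comparison. Their summed level was 1480 to 1660 FPKM at day 5, 1580 and 1550 at day 14, and 1570 and 1680 at day 28. Hspa5 (BiP), the main Hsp70 of the ER and the usual readout of the unfolded protein response, had 487, 455 and 514 FPKM at day 5, 549 and 486 at day 14, and 474 and 511 at day 28. The time points overlapped, and its log2 fold change from day 5 to day 28 was 0.03 (SE 0.12, 95% interval -0.24 to 0.31). From day 5 to day 14 it was 0.10 (95% interval -0.17 to 0.38). Calr and Canx, the lectin chaperones of new glycoproteins, had 437 ± 33.1 and 142 ± 3.62 FPKM at day 5 and 461 ± 19.8 and 131 ± 13.2 at day 28. Hsp90b1 (GRP94), the Hsp90 of the ER, had 220 ± 13.6, 210 ± 8.61 and 248 ± 10.8 FPKM on days 5, 14 and 28. Its day 28 libraries were above the day 5 libraries, by 0.19 on the log2 scale (adjusted p = 0.299).

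The partners of BiP were as even. Hyou1, its nucleotide exchange factor, had 35.9 ± 1.95 FPKM at day 5 and 38.4 ± 4.23 at day 28. Of the J proteins, which pass clients to BiP, Dnajb9 went from 27.6 ± 4.83 to 29.8 ± 1.18 FPKM, Dnajb11 from 62.6 ± 2.55 to 58.2 ± 4.13 and Dnajc3 from 23.6 ± 1.74 to 22.2 ± 1.42. The secreted proteins Manf and Creld2 had 47.6 ± 4.17 and 29.9 ± 3.04 FPKM at day 5 and 44.3 ± 5.08 and 29.7 ± 5.65 at day 28. The 95% interval of the change from day 5 to day 28 included 0 for each of them. Sdf2l1, a partner of J proteins in the ER, had the largest change of the 11 from day 5 to day 28. It had 44.6, 50.4 and 58.7 FPKM at day 5, 52.5 and 68.8 at day 14, and 59.6 and 77.7 at day 28. The libraries of days 5 and 28 did not overlap, and the change was 0.43 on the log2 scale (SE 0.17, adjusted p = 0.118). For the 10 other chaperones the 95% interval of the change from day 5 to day 28 lay within 1.5-fold in either direction.

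The protein disulfide isomerases, which form and reshuffle disulfide bonds, were 0 of 3 called, and their order at day 28 differed by gene. Pdia3, which works with Calr and Canx, had 192 ± 7.95 FPKM at day 5 and 216 ± 8.11 at day 28, with the day 28 libraries above the day 5 libraries (log2 fold change 0.18, adjusted p = 0.282). Pdia4 had 54.2, 47.5 and 61.8 FPKM at day 5, 43.6 and 45.0 at day 14, and 35.3 and 46.6 at day 28. All its later libraries were below all day 5 libraries, with a log2 fold change of -0.40 at day 28 (SE 0.15, 95% interval -0.74 to -0.06, adjusted p = 0.108). Pdia6 had 135 ± 7.24 FPKM at day 5 and 116 ± 14.3 at day 28, and the day 28 libraries were below those of day 5 (log2 fold change -0.21, adjusted p = 0.295). The summed level of the 3 was 359 to 402 FPKM over all libraries. Pdia3 and Pdia6 overlap exons of Catsper2 and Atp6v1c2 on the opposite strand.

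The genes of ER-associated degradation, which returns misfolded proteins to the cytosol for the proteasome, were 0 of 6 called. Herpud1, a membrane protein that gathers the degradation complex, was the gene nearest to a call at day 14. It had 37.0, 33.2 and 35.6 FPKM at day 5, 45.2 and 49.8 at day 14, and 38.7 and 47.9 at day 28. All later libraries were above all day 5 libraries, by 0.44 on the log2 scale for day 14 (SE 0.12, adjusted p = 0.0708) and by 0.31 for day 28 (SE 0.12, adjusted p = 0.123). It was called at day 14 in 3 of 15 alternative fits. Syvn1 (the ubiquitin ligase HRD1) had 15.4 to 19.6 FPKM at day 5 and 17.2 and 18.8 at day 28, and its partner Sel1l was the most even of the 34 genes, at 30.3 ± 0.454 and 32.0 ± 1.03, with a highest value 1.10 times the lowest. The mannosidase-like Edem1 had 48.7 to 51.9 FPKM at day 5 and 41.2 and 47.1 at day 28. Derl1 and Derl2, membrane proteins of the export channel, had 43.6 ± 3.33 and 14.1 ± 0.618 FPKM at day 5 and 35.7 ± 3.26 and 13.9 ± 0.646 at day 28. The log2 fold change of Derl1 was -0.28 (95% interval -0.55 to -0.00, adjusted p = 0.159). The interval from day 5 to day 28 lay within 1.5-fold for all 6. Derl3, the third derlin, was listed at 0.114 FPKM and 0 in the day 28 libraries and at up to 0.389 FPKM at day 14.

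**Figure D4:**
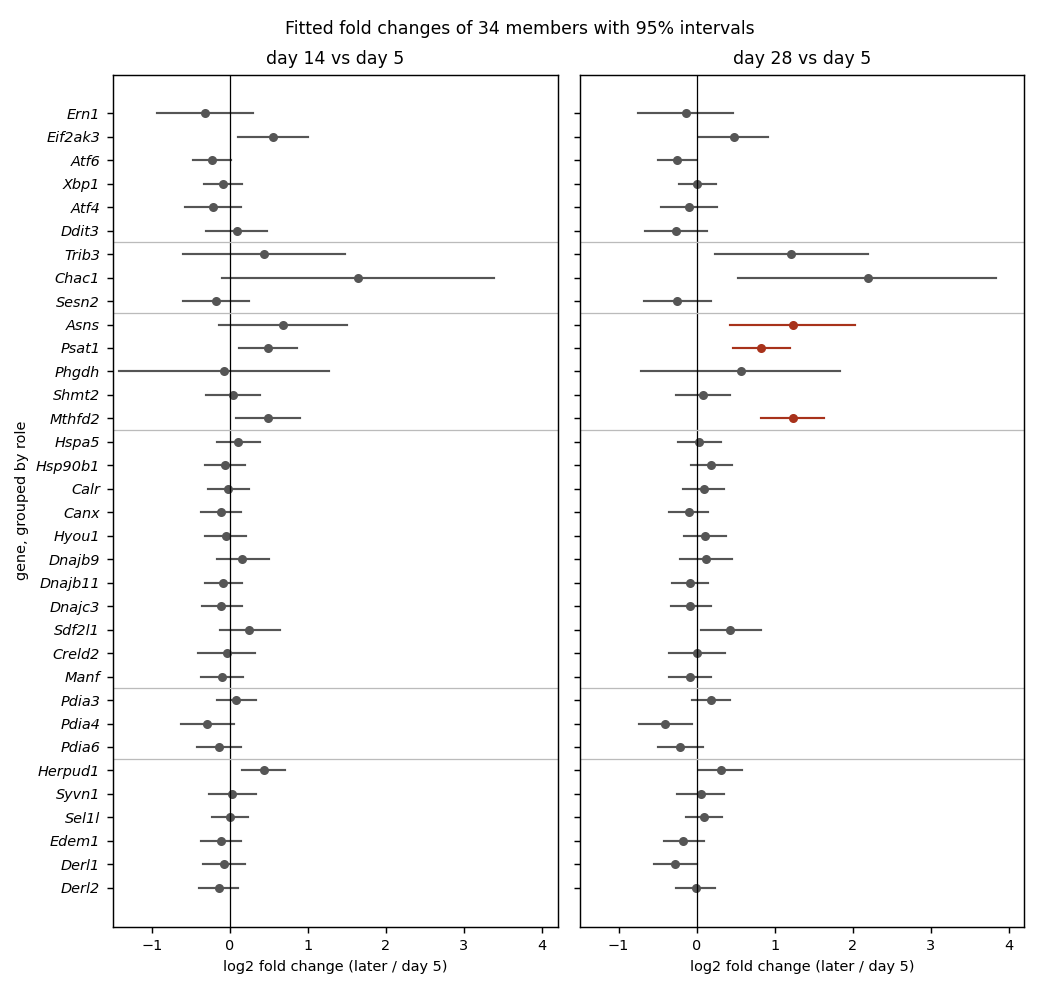
Fitted log2 fold change (horizontal axes, later over day 5) of the 34 tested genes with its 95% interval, for day 14 (left) and day 28 (right) against day 5; red marks genes called by edgeR at an adjusted p under 0.05. Mthfd2, Psat1 and Asns are the red genes and all lie in the right panel, most chaperone and degradation genes have narrow intervals around 0, and those of Chac1, Phgdh and Trib3 are wide.

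Set beside the promoter windows shown above, the 8 tested genes with an ERSE had log2 fold changes from day 5 to day 28 between -0.21 and 0.19, with interval bounds from -0.49 to 0.45, and 0 of 8 were called. The 3 genes with a CARE had log2 fold changes of 0.31 (Herpud1), 1.23 (Asns) and 2.19 (Chac1), and 1 of 3, Asns, was called. The windows of Mthfd2 and Psat1 did not hold the CARE letters. These are counts of few genes, given as a description, beside 15.2% of all genes called at day 28 against day 5.

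The 2 day 14 libraries differed over all genes, and the stress genes with them. On the log2 FPKM scale the first lay nearer to the day 28 mean than to the day 5 mean for 13 of the 34 genes (38.2%, and 46.1% of all genes), and the second for 22 (64.7%, and 63.8% of all genes). For Asns, Mthfd2 and Psat1 the second library had 1.84, 1.44 and 1.2 times the level of the first and lay nearer to day 28, while the first lay nearer to day 5. Chac1 went the other way, with 0.470 times the level in the second. The second library had the lower fibroblast sum and the higher sum of immediate early genes of the pair, and whether these differences and those of the stress genes are linked was not tested.

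Further genes of the same pathways were read as 5 lists, which together held 110 genes of which 106 were tested. From day 14 to day 28, edgeR called none of the 106 and DESeq2 called 2, beside 0.0622% and 2.69% of all genes. From day 5 to day 28, 12 of the 106 were called, 8 higher and 4 lower. From day 5 to day 14, 5 were called, 3 higher and 2 lower. These were 11.3% of the 106 at day 28 against day 5 and 4.72% at day 14 against day 5, beside 15.2% and 4.78% of all genes, so that as a whole the lists stood near or below the background. By list, at day 28 against day 5, 1 of 27 ER folding and secretory genes was higher (Dnajb14, a J protein) and 1 of 20 further degradation genes was higher (Edem2). Of 12 regulators of the unfolded protein response 2 were higher (Wfs1 and Creb3l2) and 1 lower (Tmbim6). Of 19 genes of the integrated stress response 3 were lower (Eif2ak2, Ddit4 and Bcl2l11) and none higher. Of 28 genes of amino acid supply and transfer RNA charging 4 were higher (Slc7a11, Aldh18a1, Cars and Yars) and none lower. Aldh18a1 opens proline synthesis, and Cars and Yars charge the transfer RNAs of cysteine and tyrosine.

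Wfs1 encodes wolframin, an ER membrane protein known to restrain ATF6, and had the lowest adjusted p of all 12858 genes at day 28 against day 5. Its level was 1.55, 0.982 and 1.38 FPKM at day 5, 5.53 and 12.0 at day 14, and 23.9 and 31.0 at day 28. No time points overlapped, and its rise on the log2 scale was 2.76 by day 14 (SE 0.31, adjusted p = 0.00785) and 4.40 by day 28 (SE 0.32, adjusted p = 0.000541). Slc7a11, the cystine transporter and an ATF4 target, had 10.9, 16.9 and 10.8 FPKM at day 5, 17.3 and 20.0 at day 14, and 46.6 and 35.8 at day 28. Its rise to day 28 was 1.70 on the log2 scale (SE 0.21, adjusted p = 0.00191), and this rise and that of Wfs1 to day 28 were each called in 15 of 15 alternative fits. The rise of Wfs1 to day 14 was called in 14 of 15 and lost with the replicate block (adjusted p = 0.0658). Creb3l2, an ER-bound transcription factor cleaved like ATF6, went from 2.31 ± 0.347 to 5.24 ± 1.37 FPKM (log2 fold change 1.19, SE 0.25, adjusted p = 0.015 by edgeR). This rise was called in 13 of 15 alternative fits. Without the second day 28 library the log2 fold change was 0.90. The day 14 libraries of Creb3l2, at 3.22 and 5.16 FPKM, overlapped those of day 28, at 4.27 and 6.22.

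Of the genes that fell, Eif2ak2 (PKR), which phosphorylates eIF2α on sensing double-stranded RNA and is induced by interferon, had 22.2, 23.9 and 17.0 FPKM at day 5, 15.1 and 10 at day 14, and 9.06 and 6.99 at day 28. The time points did not overlap and the log2 fold change to day 28 was -1.37 (SE 0.21, adjusted p = 0.00479). Ddit4, an inhibitor of mTORC1, had 42.0 ± 3.27, 19.4 ± 7.01 and 24.6 ± 0.293 FPKM on days 5, 14 and 28, and was called lower at day 14 (log2 fold change -1.11, adjusted p = 0.0209) and again by day 28 (-0.75, adjusted p = 0.0292). Bcl2l11 (BIM), which promotes apoptosis, had 41.2 ± 3.66 FPKM at day 5 and 25.0 ± 3.36 at day 28 (log2 fold change -0.70, adjusted p = 0.033). Ddit4 and Bcl2l11 were each called in 9 of 15 alternative fits at day 28. Ero1l, the oxidase that recharges disulfide isomerases, was lower at day 14, with 56.0 ± 3.92 FPKM at day 5 and 31.5 ± 2.89 at day 14 (log2 fold change -0.82, adjusted p = 0.0353). Its day 28 libraries were at 49.9 and 33.5 FPKM. The day 14 calls of Ero1l and Ddit4 were made in 9 and 11 of 15 alternative fits, and both were lost with the replicate block (adjusted p = 0.0865 and 0.0802).

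At day 14 Pck2 and Ppp1r15a were called higher beside Wfs1. Pck2, the mitochondrial phosphoenolpyruvate carboxykinase, had 2.64 ± 0.406 FPKM at day 5 and 5.25 ± 1.05 at day 14 (log2 fold change 1.0, SE 0.22, adjusted p = 0.0374). Ppp1r15a (GADD34), which directs the dephosphorylation of eIF2α, had 112 ± 13.2 and 183 ± 14.5 FPKM (log2 fold change 0.72, SE 0.17, adjusted p = 0.0492). Ppp1r15a was called in 5 of 15 alternative fits and Pck2 in 8. At day 14, 4 of the 9 immediate early and heat shock genes were called higher as well, and their part in these changes was not tested.

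**Figure D5:**
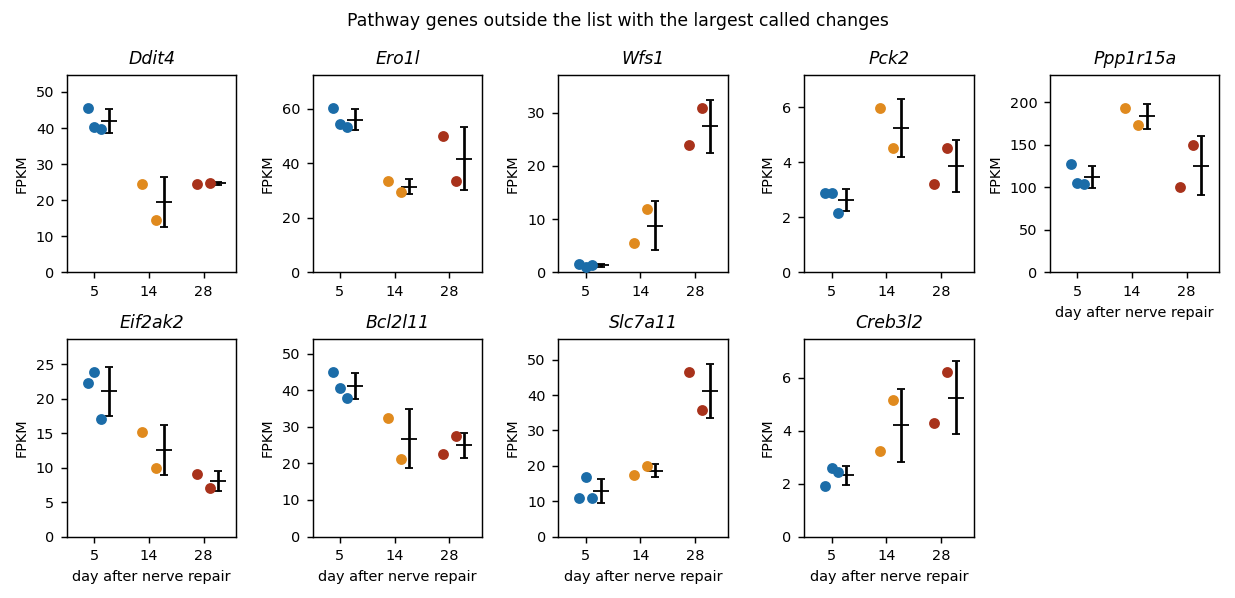
FPKM (vertical axes, from 0) of the 9 named genes of the further pathway lists against day after nerve repair; each point is 1 library and the bars give the mean ± SD (n = 3, 2 and 2). By mean, Wfs1, Slc7a11 and Creb3l2 are highest at day 28, and Eif2ak2, Ddit4 and Bcl2l11 at day 5. Ero1l has its lowest mean at day 14, and Pck2 and Ppp1r15a have their highest mean at day 14.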

How the data were processed

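Macrophage RNASeq from 7 libraries was used. Per the labels and the methods of the study, the authors used cutadapt 1.8 to trim single-end reads, TopHat2 2.0.13 to map them to mm10 without new junctions, and Cuffdiff 2.2.1 to quantify genes. They deposited, per gene and library, expected counts (fragments before scaling, all whole numbers for the 35 genes), a scaled signal and FPKM. The scaled signal is the deposited fragments multiplied by 1 factor per library. FPKM sets scaled fragments against transcript length, and library size enters by that factor. The FPKM values of the deposited table therefore carry cuffdiff's scaling. The sharing of reads between similar genes and the use of strand are not given in the sources used here, so values of overlapping genes and of Calr and Phgdh, which have named pseudogenes, are uncertain. Apart from Ddit3, Pdia3 and Pdia6, exon overlaps with other annotated genes were found for Shmt2, Hsp90b1, Syvn1, Derl2, Manf, Pdia4, Eif2ak3 and Dnajb9. 1 further value column was not used.

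The expected counts, rounded, entered edgeR 4.0.16 under R 4.3.3 (TMM scaling, filterByExpr, quasi-likelihood F test, Benjamini-Hochberg adjustment within each of 3 comparisons). 1 model held all 7 libraries and no factor besides time point. The study used cuffdiff's own test, which was not rerun. A gene was called at an adjusted p under 0.05. SE is the absolute log2 fold change over the square root of F and is approximate, and 95% intervals use the t distribution with the fit's degrees of freedom. p-values measure the spread between these libraries. The FPKM values served for levels, with mean ± SD per time point. Alternatives were DESeq2 1.42.0, RLE and cuffdiff scaling, no filter, limma 3.58.1 on log2(FPKM + 1) and log2(FPKM + 0.1), only the 2 time points compared, the replicate number as a block, each library left out, and a call that also needs a 2-fold difference in mean FPKM and a mean FPKM of at least 5. The tests were tried on simulated data. Python 3.11.15 with pandas 2.3.3 and matplotlib 3.10.9 was used for tables and plots.

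The 35 genes, their roles, the further lists and the tests were chosen with earlier results of these data known. Genes called in any comparison, the sensors and the transcription factors were given library by library, as were genes near a call, chosen after their values were seen. At most 3 called genes per direction and comparison were described from the further lists, with the others named where counts were small. The marker lists for eosinophils and mast cells, dendritic cells, neutrophils, Schwann cells and endothelial cells are given in the closing section. Promoter windows are from RefSeq on GRCm38.p6, and gene coordinates from GENCODE on GRCm38, the build that UCSC calls mm10.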

Additional observations from a re-analysis of the deposited data

How the results depend on the processing

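The count of the 35 genes called from day 5 to day 28 was 3 with DESeq2, with RLE or cuffdiff scaling, without the filter and with limma on log2(FPKM + 0.1), 4 with limma on log2(FPKM + 1) and with only the 2 time points compared, 1 under the stringent call (Mthfd2), and 1 to 4 with single libraries left out: 1 without the second day 28 library (Mthfd2) and 4 without the first day 14 library, where Eif2ak3 was added. From day 5 to day 14 the count of 0 became 1 with DESeq2 and 1 without the expression filter (Herpud1 in both), and 0 to 4 with single libraries left out, the 4 being Eif2ak3, Ern1, Herpud1 and Mthfd2 without the first day 14 library. From day 14 to day 28 it was 1 without the filter and 0 to 1 with single libraries left out, the 1 being Mthfd2 without the second day 14 library. With DESeq2, 11 of the further pathway genes were called at day 14 against day 5, where edgeR called 5. Of all genes, DESeq2 called 10.8% and edgeR 4.78% in this comparison. At day 28 against day 14 DESeq2 called 2 of the further genes and edgeR 0, beside 2.69% and 0.0622% of all genes. With limma on log2(FPKM + 0.1) the 3 genes called from day 5 to day 28 were Chac1, Mthfd2 and Psat1, so Asns was not among them. The cause of these changes was not tested. Each arm of 2 is left with 1 library when the other is left out, and this library was assumed to vary like the others. Of the genes called in the fits reported above, those described with their values kept their direction under the alternatives run for them, while Ern1, called lower from day 5 to day 14 without the first day 14 library (-0.96), stood at 0.13 without the second. With a block for the replicate number, 5.72% of all genes were called from day 5 to day 28 (15.2% without it). At day 14 against day 5 the share was 0.0467% (4.78% without it), and at day 28 against day 14 it was 0.0% (0.0622% without it). Of the 35 genes, the block for the replicate number left 1 called from day 5 to day 28 (Mthfd2) and 0 in the other comparisons. Over 7613 genes, the deviations from the time point means of libraries with the same number correlated at 0.175 and 0.0449 between days 5 and 14. They correlated at 0.0842 and 0.0249 between days 5 and 28 and at -0.0538 between days 14 and 28. With 2 libraries at a time point the 2 deviations mirror each other, so these values cannot decide whether the numbers pair the libraries. With 3, 2 and 2 libraries, genes such as Chac1, Trib3 and Phgdh, with at most 89 fragments, could have changed without being called.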

Other observations

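The remaining marker lists give further values for the sorted cells. The endothelial markers summed to 14.6 to 26.4 FPKM at day 5, 13.4 and 7.42 at day 14 and 6.82 and 3.66 at day 28. They did not move together. Of the 4 tested, edgeR called 1 higher and 2 lower at day 28 than at day 5, beside 15.2% of all genes called. Their log2 fold changes ran from -3.02 to 4.63. Of 6 Schwann cell markers only Mbp exceeded 0.247 FPKM. The 6 summed to 10.7 to 11.5 FPKM at day 5, 12.9 and 19.9 at day 14 and 19.9 and 17.7 at day 28. The 1 tested marker was called higher at day 28 than at day 5 (log2 fold change 0.75, adjusted p = 0.0296 by edgeR). The neutrophil genes S100a8 and S100a9 carried sums of 239 to 275 FPKM at day 5, 495 and 515 at day 14 and 252 and 103 at day 28, while Elane was at 0 in all libraries. The eosinophil and mast cell markers summed to at most 2.5 FPKM, and the dendritic cell markers to 15.9 to 19.5 FPKM at day 5, 34.4 and 18 at day 14 and 26.8 and 36.9 at day 28. The part of these cell types in the values of the stress genes was not tested.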
